A study of Mus musculus with 12 samples.

Results

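To ask which genes tell interferon gamma (IFNγ) apart from bacterial lipopolysaccharide (LPS) in the same cells, the 3 IFNγ libraries were set directly against the 3 LPS libraries, which are 6 of the 12 libraries of the series. The members are given by the column labels alone, and every gene that passed a filter on low counts entered the comparison, 12122 of the 20778 genes in the table. CD8 T cells were drawn with magnetic beads (MojoSort) from the spleen of C57BL/6 mice and kept in culture for 6 hours with IFNγ at 70 ng/ml, with LPS at 1 µg/ml, with an antibody to CD3 or untreated (Naïve). None of the groups differs in strain or tissue, and neither of the stimulated groups compared here received the CD3 antibody. The labels give the mice as 6 weeks old while the methods of the study give an older age, and the LPS dose is in µg/ml in one label and in mg/ml in another, so both are uncertain. Nothing in the labels says that the replicates came from separate mice or cultures, so the p-values measure the spread between these libraries, which may be technical.

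IFNγ is a cytokine released by activated T cells and NK cells. It binds a receptor made of IFNGR1 and IFNGR2, the kinases JAK1 and JAK2 are activated, and transcription factors downstream of them bind DNA elements named gamma-activated sites (GAS). Targets of this pathway include the transcription factor IRF1, the guanylate-binding proteins and the machinery that loads peptides on MHC molecules. LPS, a part of the outer membrane of Gram-negative bacteria, is passed by CD14 to Toll-like receptor 4 (TLR4), which signals through MyD88 to NF-κB and through TRIF to IRF3, and thereby also to interferon beta. The receptor is best known from macrophages, dendritic cells and B cells. Type I interferon activates a complex with IRF9 that binds the interferon-stimulated response element (ISRE).

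Both CD8 chains were present at similar levels on either side. Cd8a was at 218, 250.2 and 262 CPM (counts relative to the TMM-normalized library total) in IFNγ replicates 1 to 3 and at 196, 188 and 231 CPM in LPS replicates 1 to 3, and Cd8b1 was at 332, 383 and 379 CPM in IFNγ and 284, 365 and 387 CPM in LPS. Neither was called (log2 fold changes of 0.25 and 0.077). The libraries also held markers of other spleen cells: the 15 tested B cell markers summed to 3697, 3725 and 3652 CPM in IFNγ and 3828, 2702 and 2797 CPM in LPS, and the 20 tested myeloid markers to 1794, 2783 and 2802 and 1310, 1991 and 1877 CPM. No tested marker of any cell type list was at 0 in all 6 libraries. In bulk libraries, fewer cells of a type and less RNA per cell cannot be told apart. Replicate 1 had the lowest myeloid sum and the lowest erythroid and platelet sum in the Naïve, IFNγ and LPS groups alike, and LPS replicate 1 stood apart in several genes described here. The library totals were 12195895, 11700322 and 10586851 estimated counts in IFNγ and 10196248, 12914765 and 13393464 in LPS.

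**Figure D1:**
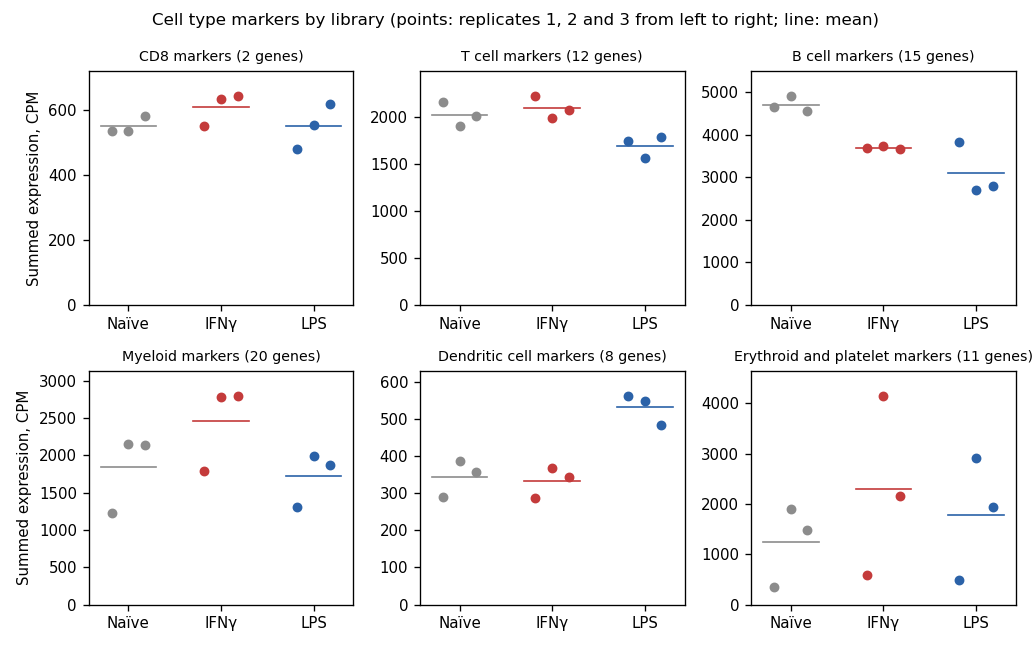
Summed expression (CPM) of the tested members of 6 cell type marker lists in each Naïve, IFNγ and LPS library; points are replicates 1, 2 and 3 from left to right and lines are group means of 3. Dendritic cell marker sums lay at 563, 549 and 485 CPM in LPS against 287, 367 and 343 CPM in IFNγ, and replicate 1 was lowest for the myeloid and the erythroid lists in each group.

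IFNγ and LPS libraries differed in a large share of the transcriptome. By edgeR's quasi-likelihood test with Benjamini-Hochberg adjustment, 4895 of 12122 genes were called at an adjusted p under 0.05 (40.4%), 2182 of them higher in IFNγ (18%) and 2713 higher in LPS (22.4%). A difference of at least 2-fold was found in 1115 called genes (9.2%), of which 447 were higher in IFNγ (3.69%) and 668 higher in LPS (5.51%). Differences of at least 4-fold were reached by 83 and 95 of those genes. The 3 IFNγ and the 3 LPS libraries did not overlap in 6034 of the tested genes (49.8%). Among the 4895 called genes 4768 did not overlap, so a lack of overlap in a called gene named below adds little to its call. Log2 fold changes are given as IFNγ minus LPS throughout, so that a positive value is higher in IFNγ.

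The level of each gene in the Naïve libraries is set beside both stimuli. The comparisons with Naïve share those libraries and are not independent of each other. In IFNγ, 990 genes (8.17%) lay above and 518 (4.27%) below Naïve past the threshold, and in LPS 3265 (26.9%) lay above and 2709 (22.3%) below it. The 447 genes at least 2-fold higher in IFNγ had a median log2 fold change against Naïve of 0.23 in IFNγ and of -1.20 in LPS. The 668 genes at least 2-fold higher in LPS had medians of -0.091 in IFNγ and 1.23 in LPS. In both directions the median distance from Naïve was larger in LPS.

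**Figure D2:**
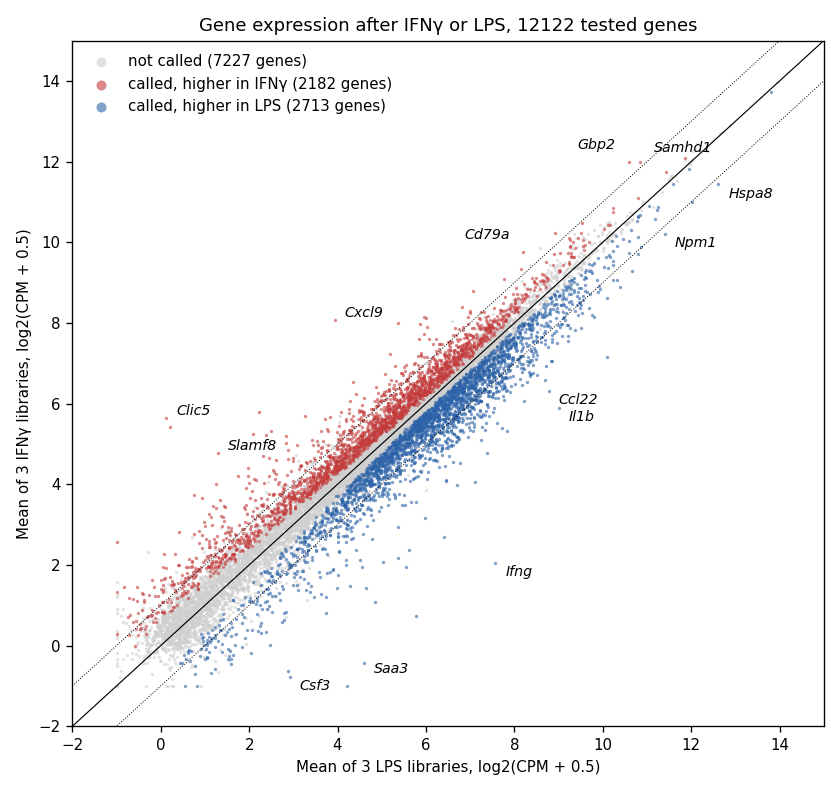
Mean expression of 12122 tested genes in the 3 LPS libraries (x axis) and the 3 IFNγ libraries (y axis), both as log2(CPM + 0.5), with called genes in colour, the line of equal expression and dotted lines at a 2-fold difference. Clic5 and Cxcl9 lay far above the line and Ifng, Csf3 and Saa3 far below it, whereas the called genes of high expression, such as Gbp2 and Hspa8, lay close to the 2-fold lines.

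Among the genes with the largest differences on the IFNγ side, several were interferon targets at a low level in Naïve cells. Clic5, an intracellular chloride channel family member, was at 30.7, 59.9 and 57.3 CPM in IFNγ and 0.204, 1.09 and 0.483 CPM in LPS, against 0.244, 0.86 and 0.545 CPM in Naïve (log2 fold change 6.31, SE 0.75, edgeR adjusted p = 8.64e-05). Cxcl9, a chemokine that attracts CXCR3-bearing T cells, was at 199.7, 307 and 301 CPM in IFNγ and 2.15, 27.7 and 14.7 CPM in LPS (log2 fold change 4.16, SE 0.79, edgeR adjusted p = 0.00188). The lowest IFNγ library lay above the highest LPS library for both, which the rule for named genes requires. LPS replicate 1 had the lowest value of the 6 for both. Without LPS replicate 2, the highest of its group, the differences grew to 7.07 for Clic5 and 4.95 for Cxcl9. Slamf8, a SLAM family receptor of myeloid cells, was at 17.2, 31.3 and 32 CPM in IFNγ and 0.613, 2.35 and 2.9 CPM in LPS. Ly6i, a GPI-anchored surface protein of a family with similar copies, was at 20.2, 41.5 and 50.5 CPM in IFNγ and 2.25, 4.71 and 4.34 CPM in LPS. Neither Clic5 nor Ly6i was called in LPS against Naïve (log2 fold changes of 0.25 and 0.32).

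Other genes on the IFNγ side were lower in LPS than in Naïve. Lpl, lipoprotein lipase, was at 45, 60.2 and 58.4 CPM in IFNγ and 3.99, 3.36 and 5.23 CPM in LPS, while Naïve was at 32.6, 80.1 and 71.2 CPM (log2 fold change 3.69, SE 0.35, edgeR adjusted p = 1.95e-05). The IFNγ values fell within the Naïve range, and the highest LPS value was far below both. The voltage-gated calcium channel gene Cacna1i showed the same order, with 45.2, 38.4 and 27.7 CPM in IFNγ, 5.62, 3.78 and 4.83 CPM in LPS and 49.1, 38.4 and 36.3 CPM in Naïve. The kinase gene Srpk3 was at 16.4, 8.67 and 11.6 CPM in IFNγ and 2.66, 0.588 and 0.965 CPM in LPS (log2 fold change 3.16), and at 3.96 without LPS replicate 1. Relative to Naïve, Lpl, Cacna1i and Srpk3 were called lower in LPS (log2 fold changes of -3.86, -3.13 and -2.80) and not called in IFNγ (-0.16, -0.15 and 0.36).

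Some genes were called in opposite directions against Naïve. Tgfb3, a ligand of the TGFβ family, was at 14.7, 13.2 and 10.3 CPM in IFNγ, 4.58, 4.14 and 3.27 CPM in Naïve and 0.613, 1.68 and 1.29 CPM in LPS, that is 1.67 above Naïve on the log2 scale in IFNγ (edgeR adjusted p = 0.00277) and -1.71 in LPS (edgeR adjusted p = 0.00109). The doublecortin-like kinase gene Dclk2 had log2 fold changes of 1.38 and -1.66 against Naïve in the same order. Ctsc, cathepsin C, the protease that activates granzymes, was at 365, 492 and 478 CPM in IFNγ and 127, 137 and 139 CPM in LPS (1.25 and -0.47 against Naïve), and its direct difference of 1.73 (SE 0.13) had an edgeR adjusted p of 3.03e-06. Gpr141, an orphan receptor, was at 19.9, 53.2 and 45 CPM in IFNγ and 3.58, 7.14 and 4.58 CPM in LPS, and was called against Naïve in IFNγ (2.06) but not in LPS (-0.88).

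**Figure D3:**
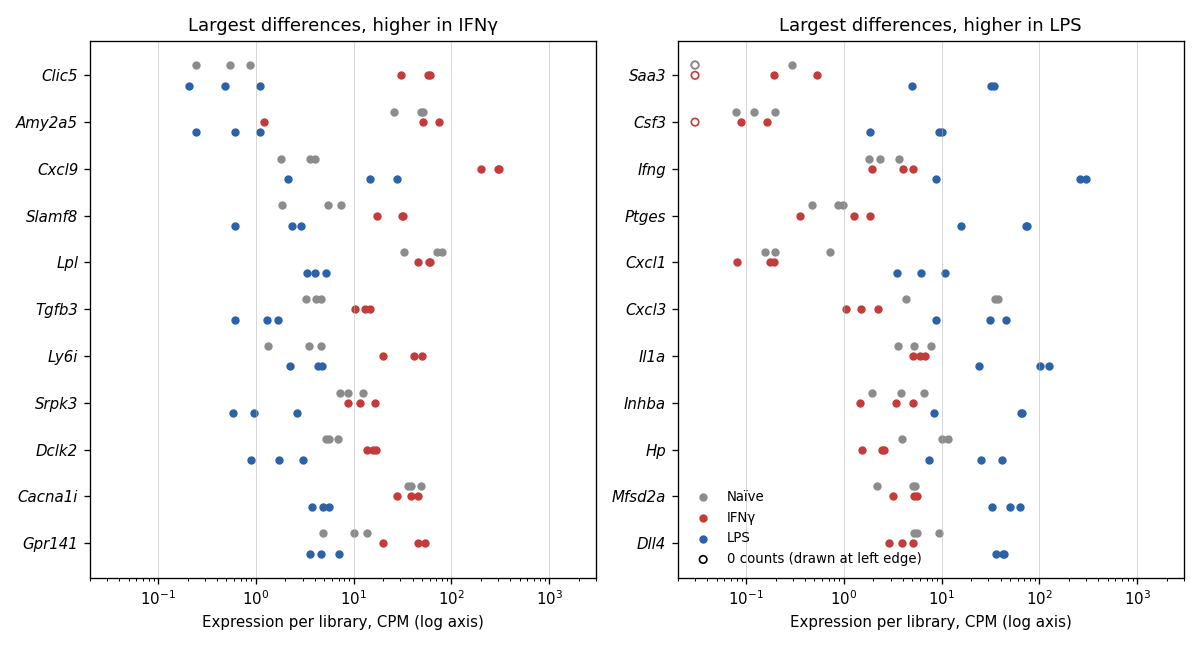
Expression per library (CPM, log axis) of the genes with the largest differences in each direction that met the rule for named genes, leaving out genes at 0 in all 3 libraries of a compared group; each point is 1 library and open points at the left edge are libraries with 0 counts. All IFNγ points lay above all LPS points in the left panel and below them in the right panel. The rule fixed this, since it admits only genes without overlap between the groups. IFNγ replicate 1 of Amy2a5 and LPS replicate 1 of Ifng lay far from the others of their group.

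The largest differences include 2 genes with values at or near 0 in 1 of the groups or libraries. Ttc37, a subunit of the SKI complex of RNA decay, had 0 counts in all 3 IFNγ libraries and 11, 24.3 and 19 CPM in LPS, at least 67.9-fold higher in LPS against a floor of 3 counts per library. It was at 10.7, 20.1 and 11.4 CPM in Naïve. Its fitted fold change depends on the prior count and is not given. Amy2a5, a pancreatic amylase with near-identical copies in the genome, was at 1.21, 50.9 and 75.1 CPM in IFNγ, 0.613, 1.09 and 0.241 CPM in LPS and 50.9, 25.9 and 49.1 CPM in Naïve. The value in IFNγ replicate 1 was close to the LPS values, and the log2 fold change of 6.01 became 5.31 without IFNγ replicate 3 and 6.66 without LPS replicate 2. It was not called by limma-voom (adjusted p = 0.263). None of 15 other pancreatic enzyme genes, a list chosen after values had been seen, was called by edgeR (0 also at an unadjusted p under 0.05), with a median log2 fold change of 0.25 (0.093 without IFNγ replicate 3 and 0.16 without LPS replicate 2). With a replicate block edgeR called 4 of them higher in IFNγ, and DESeq2 and limma-voom called 0 and 0.

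Most genes listed as IFNγ targets were above Naïve with both stimuli, 19 of 23 called in IFNγ and 15 of 23 in LPS. Over all genes 8.17% were called above Naïve in IFNγ and 26.9% in LPS. Between the stimuli, 6 were called higher in IFNγ and 2 higher in LPS (among them cyclin D2, described with the cell cycle genes), shares of 26.1% and 8.7% beside 18% and 22.4% over all genes, with a median log2 fold change of 0.55 beside 0.035 over all tested genes. The medians against Naïve were 2.48 in IFNγ and 1.57 in LPS. LPS replicate 1 had a median of 0.71 relative to the Naïve mean, against 1.88 and 1.88 in LPS replicates 2 and 3. With the replicate number as a block 10 of the 23 were called higher in IFNγ, and without replicate 1 in all groups 11, where the median fell to 0.25. The LPS count was 1 without IFNγ replicate 1 or 2 or LPS replicate 2 or 3. The list was drawn up with earlier results of these data known and holds Clic5 and Slamf8, so its count is no independent evidence of its direction. Beside this pair, the called targets included Ubd, a ubiquitin-like modifier, at 4.7, 8.49 and 6.33 CPM in IFNγ and 0.307, 0.757 and 1.45 CPM in LPS, Batf2, a transcription factor, at 14.9, 18 and 18.5 CPM in IFNγ and 1.23, 6.05 and 4.18 CPM in LPS. Upp1, uridine phosphorylase, was at 29.2, 45.7 and 48.6 CPM in IFNγ and 7.16, 15.2 and 17.1 CPM in LPS. The groups did not overlap in any of these genes, as in 49.8% of all tested genes. The difference of Ubd was 2.91 with all libraries and 3.56 without LPS replicate 3. Irf1, a transcription factor of the interferon response, was at 1292, 1102 and 1141 CPM in IFNγ and 389, 1039 and 998 CPM in LPS and was not called (log2 fold change 0.54, SE 0.31).

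The interferon-inducible GTPases act against intracellular pathogens. All 8 tested guanylate-binding protein genes had a positive log2 fold change, 4 were called higher in IFNγ (50% beside 18% of all genes) and the median was 0.70. All 8 were called above Naïve with either stimulus, beside 8.17% of all genes in IFNγ and 26.9% in LPS. The count was 2 without IFNγ replicate 2 and 2 without LPS replicate 2. Gbp2 was at 3861, 4183 and 4148 CPM in IFNγ and 697, 2100.3 and 1837 CPM in LPS, against 208, 244 and 265 CPM in Naïve (log2 fold change 1.40, SE 0.36, edgeR adjusted p = 0.011), and Gbp3 was at 431, 417 and 418 CPM in IFNγ and 166, 311 and 272 CPM in LPS. Each IFNγ library was above each LPS library for both, and LPS replicate 1 was the lowest. The 8 immunity-related GTPases also had positive values throughout (median 0.79), of which 1 was called, a share of 12.5% beside the 18% of all genes (0 with any single library but LPS replicate 3 left out), while 7 were called with the replicate block, 4 by DESeq2, by limma-voom, on library size alone or with the 6 libraries only, and 3 with a mean of at least 5 CPM. Members of both families share sequence and their counts are uncertain to that extent. Samhd1, a dNTP phosphohydrolase that restricts viruses, was at 3369.8, 4555 and 4229 CPM in IFNγ and 1177, 2249.7 and 2108 CPM in LPS. Wars, the tryptophanyl-tRNA synthetase and an interferon target, was at 716, 624 and 599.7 CPM in IFNγ and 176, 359 and 312 CPM in LPS (log2 fold change 1.19, SE 0.25, edgeR adjusted p = 0.00333).

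Genes known as targets of type I interferon were far above Naïve with both stimuli. All 42 tested members were called above Naïve in LPS and 41 of 42 in IFNγ, beside 26.9% and 8.17% of all genes, with medians of 2.95 and 2.73. Between IFNγ and LPS edgeR called 0 of the 42 (2 at an unadjusted p under 0.05), DESeq2 2 and limma-voom 0, and the median difference was 0.16 with members from -0.76 to 0.86. With 1 library left out that median ranged from -0.10 (without IFNγ replicate 2) to 0.43 (without IFNγ replicate 1). IFNγ replicate 1 held the lowest value of the stimulated libraries, a median of 1.84 relative to the Naïve mean against 3.20 and 2.99 in the others. Without replicate 1 in all 4 groups, a setting chosen after the data had been seen, 21 members were called higher in IFNγ and 1 higher in LPS, with a median of 0.32. The count thus depends on whether replicate 1 is included. With the replicate block it was 2 and 1. Cxcl10, a chemokine of both interferon types, was at 309, 450.3 and 438 CPM in IFNγ and 201, 855 and 706 CPM in LPS (log2 fold change -0.56, not called). Without replicate 1 in all groups its log2 fold change was -0.83 and it was called (edgeR adjusted p = 0.00945).

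Of 10 tested interferon regulatory factor genes, 2 were called higher in IFNγ and 1 higher in LPS, shares of 20% and 10% beside 18% and 22.4% over all genes. The first count was 1 without IFNγ replicate 1, LPS replicate 2 or LPS replicate 3 and 4 without LPS replicate 1. Irf2, which competes with IRF1 for the same element, was at 310.2, 316 and 321 CPM in IFNγ and 127, 130.0 and 122 CPM in LPS (log2 fold change 1.32, SE 0.094, edgeR adjusted p = 2.56e-06). Irf4, a factor of activated B and T cells, went the other way, at 193, 164 and 178 CPM in IFNγ and 478, 406 and 352 CPM in LPS (-1.21, SE 0.10, edgeR adjusted p = 6.82e-06). The groups were separate in both genes. In the receptor and JAK-STAT list of 20 genes, 4 were called higher in IFNγ and 5 higher in LPS, shares of 20% and 25% beside 18% and 22.4% over all genes. The counts were 7 and 8 with the replicate block, and 5 fell to 3 without IFNγ replicate 1 or LPS replicate 3. The median of -0.051 was 0.021 when libraries were scaled by size alone and ranged from -0.12 (without LPS replicate 1) to 0.034 (without LPS replicate 2) with 1 library left out. Both chains of the IFNγ receptor were called in opposite directions, Ifngr1 at 701, 693 and 682 CPM in IFNγ and 541, 522 and 571 CPM in LPS and Ifngr2 at 98.9, 93.9 and 99 CPM in IFNγ and 182, 149 and 169.7 CPM in LPS. The signal transducers Stat3 and Stat5a were higher in LPS, with log2 fold changes of -0.52 and -1.48. Ptpn6, the phosphatase SHP-1, was higher in IFNγ, with a log2 fold change of 0.58.

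To show the sequence next to the values, promoters were searched on both strands for GAS (TTCNNNGAA), ISRE (GAAA, any 2 bases, GAAA), AP-1 (TGANTCA), E-box (CACGTG) and the NF-κB consensus in the 250 bases before to 50 after the start, in RefSeq promoters of build GRCm38.p6. The 250 bases before the start of Gbp2 (chr3:142620413-142620662, plus strand) hold an ISRE 59 bases and an AP-1 match 102 bases before the start. Those of Irf2 (chr8:46739495-46739744, plus strand) hold an ISRE 241 bases, a GAS match 224 bases and the NF-κB consensus 17 bases before it. They are shown because both genes were higher in IFNγ, with the matches to all 5 motifs in capitals and every sequence read 5′ to 3′ along the gene:
Gbp2: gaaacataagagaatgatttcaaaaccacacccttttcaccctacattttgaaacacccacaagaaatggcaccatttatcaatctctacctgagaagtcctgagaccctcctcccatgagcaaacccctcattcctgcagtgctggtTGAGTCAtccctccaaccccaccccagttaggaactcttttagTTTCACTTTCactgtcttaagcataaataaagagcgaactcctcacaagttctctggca
Irf2: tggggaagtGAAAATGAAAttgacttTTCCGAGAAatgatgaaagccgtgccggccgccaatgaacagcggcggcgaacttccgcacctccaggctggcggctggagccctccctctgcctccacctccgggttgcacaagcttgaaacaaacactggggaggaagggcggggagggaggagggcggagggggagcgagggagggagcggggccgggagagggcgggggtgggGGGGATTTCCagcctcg
Of the promoters of tested genes, 7% held a GAS match and 3.33% an ISRE (8.3% and 3.44% of all promoters). In the genes at least 2-fold higher in IFNγ the shares were 5.16% and 3.66%, and in those at least 2-fold higher in LPS 8.37% and 2.69%. The type I interferon list held an ISRE in 41.9% of its promoters. Matches are a description of the letters in these windows.

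Antigen presentation genes differed by class. Of 14 MHC class II genes, 6 were called below Naïve in IFNγ and 10 in LPS, beside 4.27% and 22.3% of all genes. Above Naïve 2 were called in IFNγ and 1 in LPS. Between the stimuli 8 of 14 were called higher in IFNγ and 0 higher in LPS by edgeR (0 at an unadjusted p under 0.05 and 0 by DESeq2), shares of 57.1% and 0% beside 18% and 22.4% over all genes, with a median of 0.32, and medians against Naïve of -0.33 in IFNγ and -0.74 in LPS. The count was 5 without IFNγ replicate 2, without LPS replicate 2 or without LPS replicate 3. The largest differences were in H2-Ob and H2-Oa, which form the DO heterodimer that inhibits peptide loading in B cells. H2-Ob was at 249.7, 194 and 187 CPM in IFNγ and 82.4, 51 and 51.1 CPM in LPS, and H2-Oa at 69.3, 66.7 and 72.9 CPM in IFNγ and 24.6, 20.9 and 26 CPM in LPS. Cd74, the invariant chain, was at 4348, 4457 and 4320.4 CPM in IFNγ and 3904, 3695 and 3572 CPM in LPS, a difference of 0.23 (SE 0.055). The B cell marker sums given above overlapped between the groups, with LPS replicate 1 above all IFNγ libraries and the other LPS libraries below them, and their part in the class II values was not tested.

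The class I list had 6 of 19 genes higher in IFNγ and 3 higher in LPS, shares of 31.6% and 15.8% beside 18% and 22.4% over all genes (10 and 4 with the replicate block, and 12 and 4 without replicate 1 in all groups), with a median of 0.26. H2-D1, a classical heavy chain whose reads may be shared with its paralogs, was at 3254, 3527 and 3501 CPM in IFNγ and 2521, 2919.8 and 2877 CPM in LPS. Tap2, a subunit of the peptide transporter, was at 513, 533 and 526 CPM in IFNγ and 281, 362 and 395 CPM in LPS. The endoplasmic chaperone Canx, calnexin, was higher in LPS, at 304, 341 and 335 CPM in IFNγ and 601, 621 and 578 CPM in LPS. None of the 5 immunoproteasome genes was called by edgeR (2 at an unadjusted p under 0.05, 2 by DESeq2, 0 by limma-voom, and 3 higher and 1 lower in IFNγ with the replicate block), and their medians against Naïve were 1.18 in IFNγ and 1.09 in LPS. Of the constitutive proteasome 24 of 31 subunit genes were called higher in LPS (77.4% beside 22.4% of all genes) and 0 higher in IFNγ by edgeR (0 at an unadjusted p under 0.05 and 0 by DESeq2), with a median of -0.52. All 31 values were negative, from -0.91 for Psmd14, a deubiquitinase of the lid, to -0.029.

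**Figure D4:**
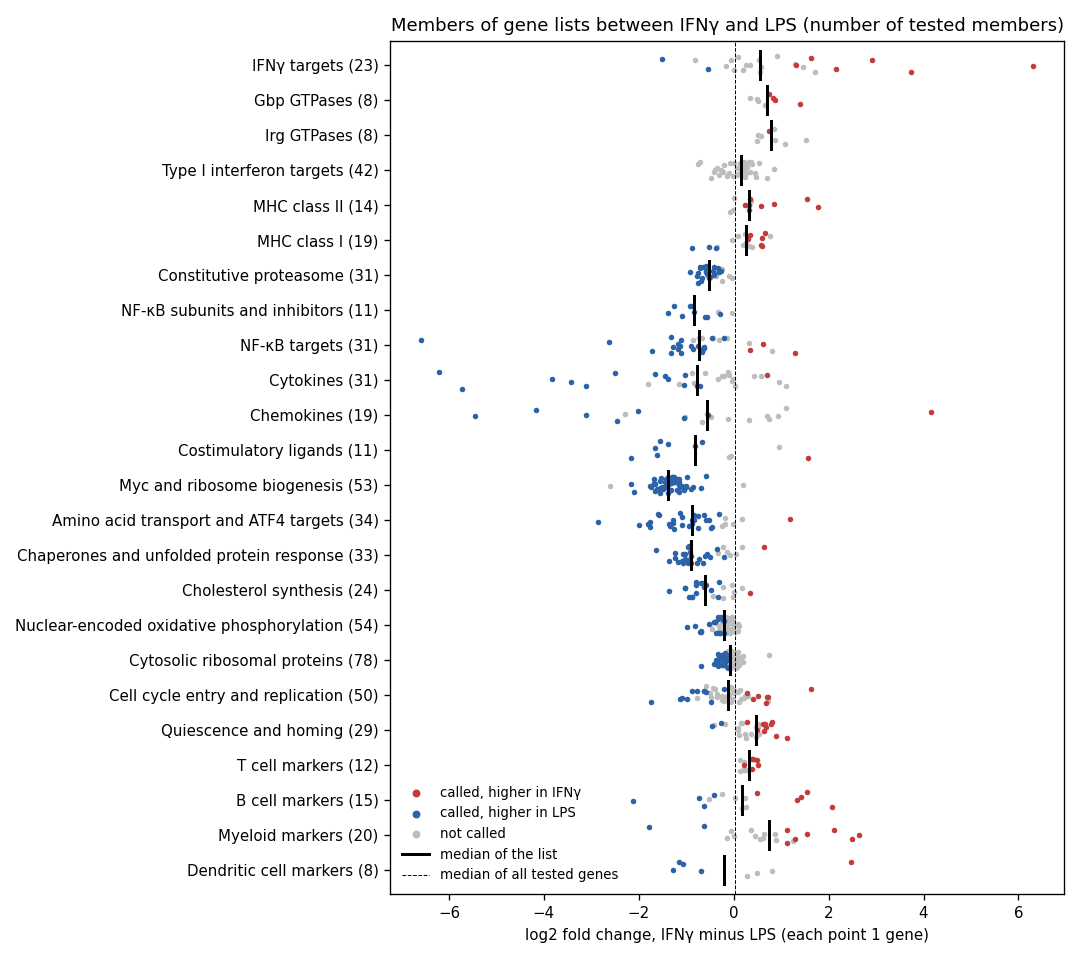
Log2 fold change (IFNγ minus LPS) of each tested member of 24 gene lists, coloured by call, with the median of each list as a bar and the median of all tested genes as a dashed line. The ribosome biogenesis list lay almost wholly to the left of zero and the guanylate-binding protein list to the right, whereas the type I interferon list was centred near the dashed line with no coloured point.

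Many secreted mediators were higher in LPS. Il1b, interleukin 1 beta, was at 65.8, 47.2 and 64.3 CPM in IFNγ and 157, 650.4 and 733 CPM in LPS (log2 fold change -3.12, SE 0.48, edgeR adjusted p = 0.000476). Il1a was at 5.99, 5.13 and 6.72 CPM in IFNγ and 24, 102 and 127 CPM in LPS. Ifng, the gene of the cytokine used as the other stimulus, was at 1.94, 3.98 and 5.07 CPM in IFNγ and 8.69, 300.2 and 260.4 CPM in LPS, against 1.8, 2.35 and 3.69 CPM in Naïve. LPS replicate 1 was close to the Naïve and IFNγ values while the other LPS libraries were far above. The log2 fold change was -5.72 (SE 1.24, edgeR adjusted p = 0.00409) and was not called by limma-voom (adjusted p = 0.156). Il6 was at 7.86, 11.8 and 10.3 CPM in IFNγ and 16.1, 31.4 and 30.6 CPM in LPS, the anti-inflammatory Il10 at 10, 14.2 and 15.1 CPM in IFNγ and 40.1, 41.2 and 42.6 CPM in LPS. Ebi3, a subunit shared by IL-27 and IL-35, was at 5.91, 8.49 and 7.21 CPM in IFNγ and 44.4, 41.4 and 36.6 CPM in LPS. Each LPS library was above each IFNγ library in all of these. Tnf, tumour necrosis factor, differed less, at 43.5, 35.5 and 40.7 CPM in IFNγ and 58.1, 65.2 and 73.4 CPM in LPS (-0.72, SE 0.12).

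Of 31 tested cytokine genes, 13 were called higher in LPS and 1 higher in IFNγ, shares of 41.9% and 3.23% beside 22.4% and 18% over all genes, with a median of -0.77, and with the replicate block 16 and 4. The exception was Il16, a CD4 ligand made by resting lymphocytes, at 266, 225 and 219 CPM in IFNγ and 181, 123 and 133 CPM in LPS, which was not called without LPS replicate 2 (adjusted p = 0.053). Csf3, the granulocyte growth factor G-CSF, had 2, 1 and 0 counts in IFNγ and 1.84, 9.33 and 10.1 CPM in LPS. The ratio of its pooled rates was 84.2 with an exact 95% interval of 28.5 to 411 that covers counting error only. Its fitted log2 fold change was -6.20, or -7.02 without IFNγ replicate 1 and -7.45 without replicate 1 in all groups. Inhba, the activin A subunit, was at 1.46, 5.13 and 3.41 CPM in IFNγ and 8.28, 66.2 and 64.3 CPM in LPS, with LPS replicate 1 far below the other LPS libraries, and was not called by limma-voom (adjusted p = 0.0573). Saa3, an acute phase protein, was at 0, 0.531 and 0.195 CPM in IFNγ and 5.01, 31.8 and 33.9 CPM in LPS. Hp, haptoglobin, was at 1.54, 2.57 and 2.44 CPM in IFNγ and 7.36, 25.1 and 41.3 CPM in LPS. Saa3 had a log2 fold change of -6.59, which was -5.97 without IFNγ replicate 1 and -7.92 without IFNγ replicate 2, and Hp one of -3.51, which was -2.91 without LPS replicate 3. Ptges, prostaglandin E synthase, was at 1.86, 0.354 and 1.27 CPM in IFNγ and 15.7, 72.5 and 75.1 CPM in LPS (log2 fold change -5.53, SE 0.65, or -6.55 without replicate 1 in all groups).

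Chemokine genes were called on both sides. Of 19 tested, 7 were called higher in LPS and 1, the CXCR3 ligand Cxcl9 described above, higher in IFNγ, shares of 36.8% and 5.26% beside 22.4% and 18% over all genes. The median was -0.56 (-0.96 without LPS replicate 1), and the replicate block gave 10 and 3 calls, as against 11 and 3 without replicate 1 in all groups. The IFNγ count was 2 without IFNγ replicate 1. Cxcl1, Cxcl2 and Cxcl3 are ligands of CXCR2 that attract neutrophils. Cxcl1 had 1, 2 and 2 counts in IFNγ and 3.48, 6.22 and 10.8 CPM in LPS, a pooled ratio of 48.1 with an exact 95% interval of 20.3 to 150.0 for counting error only. Cxcl2 was at 15.6, 14.8 and 17.6 CPM in IFNγ and 107, 141 and 169 CPM in LPS. Cxcl3 was at 1.05, 1.5 and 2.24 CPM in IFNγ, 8.69, 31.1 and 45.4 CPM in LPS and 4.34, 38 and 34.9 CPM in Naïve (log2 fold change -4.17, not called by limma-voom, adjusted p = 0.0922). Against Naïve it was called lower in IFNγ (-4.01, edgeR adjusted p = 0.0193) and not called in LPS (0.16). Ccl22, a CCR4 ligand of dendritic and B cells, was at 49, 81.1 and 108 CPM in IFNγ and 443, 398 and 478 CPM in LPS. Ccl3, a chemokine made by activated leukocytes, was at 38.6, 38.4 and 42.8 CPM in IFNγ and 120.4, 168 and 198 CPM in LPS. No LPS library of Ccl22, Ccl3 or Cxcl2 overlapped an IFNγ library.

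Genes of the NF-κB pathway itself were higher in LPS. In all, 9 of 11 subunit and inhibitor genes were called higher in LPS (81.8% beside 22.4% of all genes) and 0 higher in IFNγ by edgeR (0 at an unadjusted p under 0.05 and 0 by DESeq2), with a median of -0.84, and medians against Naïve of 0.17 in IFNγ and 1.00 in LPS. Nfkbia, the inhibitor IκBα and a rapid NF-κB target, was at 259, 223 and 252 CPM in IFNγ and 571, 587 and 609 CPM in LPS (log2 fold change -1.27, SE 0.077, edgeR adjusted p = 1.48e-06). The nuclear inhibitor Nfkbiz was at 134, 141 and 135 CPM in IFNγ and 386, 349.7 and 337 CPM in LPS. Nfkb1, the p105 precursor of p50, was at 461, 448 and 467 CPM in IFNγ and 970.0, 1006 and 965 CPM in LPS. No library of one group overlapped the other in these genes, as in 49.8% of all tested genes.

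Of 31 tested NF-κB target genes, 20 were called higher in LPS and 3 higher in IFNγ, shares of 64.5% and 9.68% beside 22.4% and 18% over all genes (23 and 5 with the block), with a median of -0.74. They included the deubiquitinase Tnfaip3 (A20), which was at 458, 418 and 432 CPM in IFNγ and 782, 813 and 792 CPM in LPS, and the survival genes Birc3 and Bcl2a1b, the latter one of several near-identical copies, with log2 fold changes of -0.62 and -1.72. The iron-binding Lcn2 was at 40.2, 22.1 and 17.9 CPM in IFNγ and 161, 158 and 179 CPM in LPS. Vcam1, the ligand of the integrin VLA-4, was on the other side, at 24.9, 28 and 30.6 CPM in IFNγ and 9.41, 11.9 and 12.8 CPM in LPS. The LPS receptor Tlr4 was higher in IFNγ, at 19.5, 21.8 and 18.4 CPM in IFNγ, 5.73, 4.29 and 5.87 CPM in LPS and 9.07, 18.3 and 20 CPM in Naïve (log2 fold change 1.91, SE 0.27, edgeR adjusted p = 0.000218). Its co-receptor Cd14 was higher in LPS, at 11.7, 17.7 and 19.9 CPM in IFNγ and 36.6, 99.4 and 127 CPM in LPS (log2 fold change -2.42, SE 0.47, edgeR adjusted p = 0.00207). Cd180, a TLR4-like receptor of B cells, was at 52.5, 72.1 and 76.5 CPM in IFNγ and 45.4, 21.4 and 31.1 CPM in LPS. Of the 33 genes of the TLR list as a whole, 5 were higher in IFNγ and 3 higher in LPS, shares of 15.2% and 9.09% beside 18% and 22.4% over all genes. The counts moved with the setting (5 and 7 with the replicate block, 9 and 1 on library size alone, 8 and 8 without replicate 1 in all groups, 3 and 1 without IFNγ replicate 2, and 1 in LPS also without IFNγ replicate 3 or LPS replicate 1). The median of 0.018 ranged from -0.003 (without LPS replicate 3) to 0.052 (without IFNγ replicate 2) with 1 library left out.

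The upstream sequences of Nfkbia (chr12:55492648-55492897, minus strand) and Cxcl2 (chr5:90903649-90903898, plus strand) are printed because both genes were higher in LPS and both hold the NF-κB consensus, which starts 29 bases before the start of Nfkbia. In Cxcl2, 2 overlapping matches on opposite strands start 97 and 96 bases before it. Capitals mark the matches, and these windows hold no match to the other motifs:
Nfkbia: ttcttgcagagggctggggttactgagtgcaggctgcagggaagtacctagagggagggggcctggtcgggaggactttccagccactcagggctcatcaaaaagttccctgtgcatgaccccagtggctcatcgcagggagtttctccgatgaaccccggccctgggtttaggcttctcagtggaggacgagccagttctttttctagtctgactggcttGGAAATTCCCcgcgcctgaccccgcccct
Cxcl2: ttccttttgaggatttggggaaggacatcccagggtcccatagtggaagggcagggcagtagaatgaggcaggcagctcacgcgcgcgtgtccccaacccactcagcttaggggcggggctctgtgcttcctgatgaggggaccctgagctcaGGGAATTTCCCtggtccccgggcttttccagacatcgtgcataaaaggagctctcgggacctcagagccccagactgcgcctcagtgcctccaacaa
Over all promoters 4.51% held the NF-κB consensus, and 5.19% of those of tested genes. The share was 6.28% for genes at least 2-fold higher in LPS, 4.73% for those at least 2-fold higher in IFNγ, and 19.4% in the NF-κB target list. AP-1 matches were in 7.32% and 8.6% of the promoters of the LPS-high and the IFNγ-high genes, against 5.27% of tested genes.

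Most costimulatory molecules were higher in LPS. Cd40, the receptor of B and dendritic cells for T cell help, was at 81.6, 127 and 116 CPM in IFNγ and 237, 420.0 and 366 CPM in LPS. Slamf1 was at 12.1, 9.11 and 12.7 CPM in IFNγ and 29.2, 63.7 and 58.5 CPM in LPS. Of 11 tested genes of this list 7 were called higher in LPS (4 where a mean of at least 5 CPM was required) and 1 higher in IFNγ, shares of 63.6% and 9.09% beside 22.4% and 18% over all genes, with a median of -0.82. The exception was Icosl, the ligand of ICOS, at 93.9, 83.1 and 76.2 CPM in IFNγ and 38.4, 22.2 and 25.5 CPM in LPS. Cd83, an activation marker of dendritic and B cells, was at 119, 125 and 136 CPM in IFNγ and 322, 264 and 269 CPM in LPS. Dll4, a Notch ligand, was at 5.1, 2.92 and 3.9 CPM in IFNγ and 35.6, 43.6 and 42.2 CPM in LPS (log2 fold change -3.34, SE 0.30, edgeR adjusted p = 1.23e-05). Mfsd2a, a transporter of lysolipids, was at 3.16, 5.57 and 5.16 CPM in IFNγ and 33, 63.1 and 49.8 CPM in LPS.

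Genes of ribosome production were higher in LPS almost throughout. Of 53 tested genes of Myc and ribosome biogenesis, 51 were called higher in LPS (96.2% beside 22.4% of all genes) and 0 higher in IFNγ by edgeR (0 at an unadjusted p under 0.05 and 0 by DESeq2), with a median log2 fold change of -1.39. The count was also 51 with each single library left out, with the replicate block and without replicate 1 in all groups. Medians against Naïve were -0.005 in IFNγ and 1.35 in LPS. Npm1, nucleophosmin, was at 1087, 1223 and 1232 CPM in IFNγ and 2412, 2967 and 2776 CPM in LPS (log2 fold change -1.20, SE 0.11, edgeR adjusted p = 1.39e-05). Ncl, nucleolin, was at 185, 253 and 239 CPM in IFNγ and 617, 731 and 635 CPM in LPS. Nop2, a methyltransferase of ribosomal RNA, was at 86.3, 93.1 and 87.2 CPM in IFNγ and 245, 273 and 257 CPM in LPS. Odc1, the first enzyme of polyamine synthesis, was at 415, 419 and 421 CPM in IFNγ and 727, 924 and 871 CPM in LPS. Myc was at 157, 199 and 206 CPM in IFNγ, 579, 640.2 and 571 CPM in LPS and 144, 159 and 152 CPM in Naïve (log2 fold change -1.67, SE 0.15, edgeR adjusted p = 1.2e-05).

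**Figure D5:**
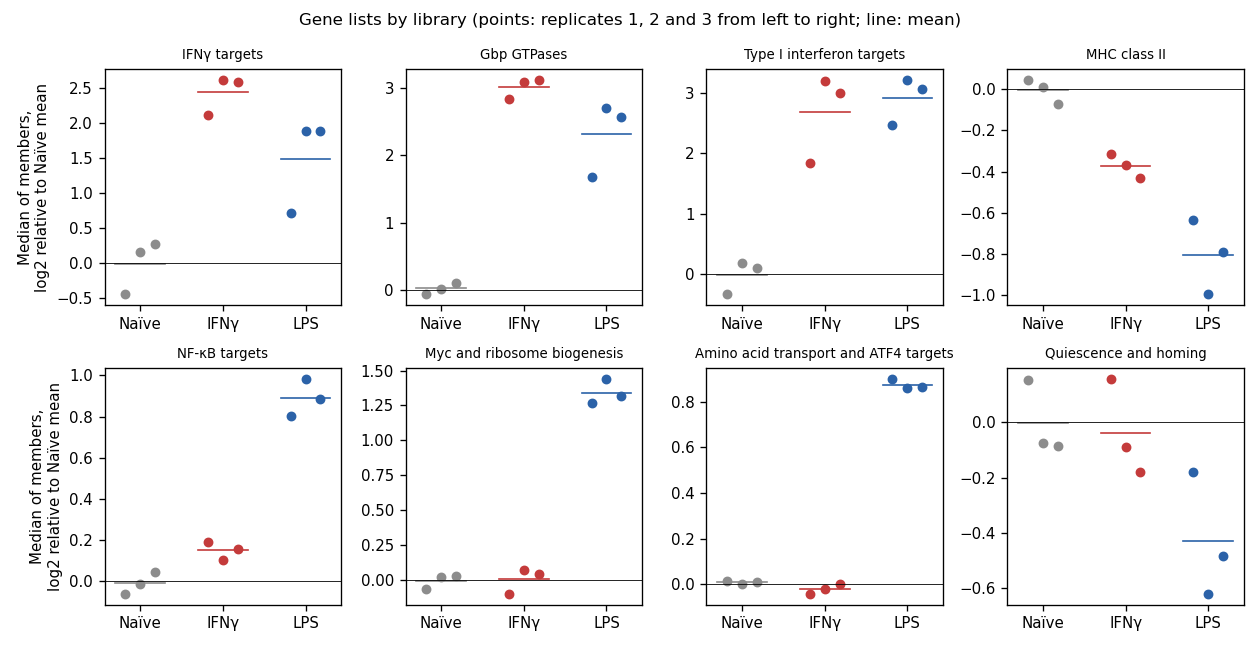
Median over the tested members of 8 gene lists in each library, as log2(CPM + 0.5) minus the mean of the 3 Naïve libraries; points are replicates 1, 2 and 3 from left to right and lines are group means. The interferon lists lay far above 0 with both stimuli, the NF-κB, ribosome biogenesis and amino acid lists were above 0 in LPS and near 0 in IFNγ, and the LPS point of replicate 1 was the lowest of its group for IFNγ targets and guanylate-binding proteins.

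Most genes of protein folding were also higher in LPS. Among the most abundant genes by the naming rule on the LPS side was the cytosolic chaperone Hspa8, at 2395, 2904 and 3015 CPM in IFNγ and 5510.1, 6881 and 6436 CPM in LPS. Hsp90ab1 was at 1917, 2034 and 2171 CPM in IFNγ and 3913, 4262 and 4231 CPM in LPS. Hsp90aa1 was at 529.6, 664 and 691 CPM in IFNγ and 1343, 1828 and 1686 CPM in LPS, and the translation factors Eif5a and Eif4a1 and the RNA-binding Hnrnpab had log2 fold changes of -1.09, -1.27 and -1.16. The naming rule took only genes in which the groups did not overlap, so this held for all of these genes in advance. Of 33 chaperone and unfolded protein response genes 26 were called higher in LPS and 1 higher in IFNγ, shares of 78.8% and 3.03% beside 22.4% and 18% over all genes, with a median of -0.89. The mitochondrial chaperonin Hspd1 was at 188, 261 and 249.9 CPM in IFNγ and 609, 817 and 760.4 CPM in LPS. Its partner Hspe1 was at 87.6, 119 and 129 CPM in IFNγ and 205, 257 and 248 CPM in LPS. The endoplasmic Hspa5 (BiP) was at 764, 1042 and 1028 CPM in IFNγ and 1685, 2020.0 and 1862 CPM in LPS. The exception was Edem1, which directs misfolded glycoproteins to degradation, at 198, 239 and 259 CPM in IFNγ and 143, 161 and 143 CPM in LPS. For cytosolic ribosomal proteins the share called higher in LPS was near that of all genes. Of 78, 22 were called higher in LPS, or 28.2% beside 22.4% of all genes, and 0 higher in IFNγ by edgeR (3 at an unadjusted p under 0.05, 3 by DESeq2), with a median of -0.081. The LPS count was 33 with the replicate block (3 in IFNγ), 11 on library size alone (5 in IFNγ), 10 with the 6 libraries only, 13 without IFNγ replicate 1 or 2, 11 without LPS replicate 2 and 9 without LPS replicate 3. The median was -0.011 on library size alone, -0.046 without IFNγ replicate 1 and -0.052 without LPS replicate 3.

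The sequences before Hspd1 (chr1:55088244-55088493, minus strand) and Nop2 (chr6:125131633-125131882, plus strand), from the chaperone and the ribosome biogenesis lists, hold the E-box CACGTG, the core element bound by Myc and by other factors of its class, 80 and 60 bases before the start. Capitals mark the E-box, the only one of the 5 motifs with a match there:
Hspd1: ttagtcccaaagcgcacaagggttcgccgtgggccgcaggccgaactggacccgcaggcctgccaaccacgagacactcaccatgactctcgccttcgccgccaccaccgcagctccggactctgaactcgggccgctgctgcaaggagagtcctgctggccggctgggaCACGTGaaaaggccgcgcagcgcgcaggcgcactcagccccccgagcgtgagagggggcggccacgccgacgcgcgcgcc
Nop2: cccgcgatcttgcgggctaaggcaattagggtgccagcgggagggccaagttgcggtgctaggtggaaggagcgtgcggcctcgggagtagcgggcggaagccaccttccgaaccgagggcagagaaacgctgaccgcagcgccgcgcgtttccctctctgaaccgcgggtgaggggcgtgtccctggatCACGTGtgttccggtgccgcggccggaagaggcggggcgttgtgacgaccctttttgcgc
An E-box was in 18.7% of promoters of genes at least 2-fold higher in LPS (125 of 669) and in 5.81% of those at least 2-fold higher in IFNγ (27 of 465), beside 9.69% of promoters of tested genes and 7.15% of all promoters. In the ribosome biogenesis list the share was 20.4%. Median GC content was 59.3% in the LPS set, 57.7% in the IFNγ set and 60.3% over tested genes. Of the tested genes, 9635 had a promoter in the RefSeq table.

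Genes of amino acid supply and of cholesterol synthesis were mostly higher in LPS. Among 34 genes of amino acid transport, serine and tRNA synthetase pathways, many of them targets of ATF4, 28 were called higher in LPS and 1 higher in IFNγ (2 with the replicate block), which was the interferon target Wars. These are shares of 82.4% and 2.94% beside 22.4% and 18% over all genes. The median was -0.89. Shmt2, the mitochondrial serine hydroxymethyltransferase, was at 96.7, 127 and 86.7 CPM in IFNγ and 340.2, 391 and 354 CPM in LPS. Slc7a5, the large neutral amino acid transporter, was at 77.9, 99.9 and 97.2 CPM in IFNγ and 322, 327 and 288 CPM in LPS. Psat1 of serine synthesis and Asns, asparagine synthetase, had log2 fold changes of -1.59 (SE 0.16) and -1.58 (SE 0.15). The groups were separate in each of these genes, as in 49.8% of all tested genes. Of 24 cholesterol synthesis genes, 16 were called higher in LPS and 1 higher in IFNγ, shares of 66.7% and 4.17% beside 22.4% and 18% over all genes (median -0.61, and 0 in IFNγ without IFNγ replicate 1 or 2 or LPS replicate 2 or 3). Of the 24, 9 were called below Naïve in IFNγ, beside 4.27% of all genes. Idi1 of the isoprenoid branch was at 100.5, 135 and 111 CPM in IFNγ and 319, 295 and 277 CPM in LPS.

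Glycolytic genes were called on both sides. Of 25, 12 were called higher in LPS and 5 higher in IFNγ, shares of 48% and 20% beside 22.4% and 18% over all genes, with a median of -0.29. Hk2, the inducible hexokinase, was at 16.3, 21.9 and 25.4 CPM in IFNγ and 68.2, 87.8 and 79.6 CPM in LPS. Ldha, lactate dehydrogenase A, was at 308, 369 and 397 CPM in IFNγ and 561, 797 and 790.1 CPM in LPS. Of 54 nuclear genes of oxidative phosphorylation 17 were called higher in LPS (31.5% beside 22.4% of all genes) and 0 higher in IFNγ by edgeR (0 at an unadjusted p under 0.05 and 0 by DESeq2), with a median of -0.21, ranging from -0.26 (without IFNγ replicate 2) to -0.12 (without IFNγ replicate 1) with 1 library left out. The LPS count was 30 with the replicate block (1 in IFNγ), 8 without IFNγ replicate 1, 9 without LPS replicate 2 and 8 without LPS replicate 3. Cyc1, cytochrome c1, was at 29.4, 31.5 and 40.4 CPM in IFNγ and 56.5, 67.2 and 76.1 CPM in LPS. Atp5b, a subunit of the ATP synthase, was at 709.6, 761 and 769.5 CPM in IFNγ and 1107, 1267 and 1221 CPM in LPS.

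Cell cycle genes were also called on both sides. Ccnd2, cyclin D2, was at 289.6, 565 and 556 CPM in IFNγ, 1064, 1611 and 1354 CPM in LPS and 127, 189 and 205 CPM in Naïve, called above Naïve with both stimuli. Its partner Cdk4 was at 115, 129.9 and 144 CPM in IFNγ and 249, 292 and 289 CPM in LPS. Cdkn1b, the inhibitor p27, was on the other side at 293, 230.1 and 220.3 CPM in IFNγ and 176, 138 and 142 CPM in LPS. Of 50 genes of cell cycle entry and replication, 11 were called higher in LPS (21 with the replicate block) and 7 higher in IFNγ (9 with the block), which are shares of 22% and 14% beside 22.4% and 18% over all genes, with a median of -0.12, ranging from -0.22 (without IFNγ replicate 3) to -0.035 (without IFNγ replicate 1) with 1 library left out. The count on the IFNγ side was 4 without IFNγ replicate 3 and 4 without LPS replicate 2.

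Most called genes of T cell quiescence were higher in IFNγ. Of 29 genes of quiescence and homing, 10 were called higher in IFNγ (22 with the replicate block) and 2 higher in LPS, shares of 34.5% and 6.9% beside 18% and 22.4% over all genes, with a median of 0.48 (0.25 without IFNγ replicate 1), and medians against Naïve of -0.061 in IFNγ and -0.43 in LPS. The LPS count was 1 by DESeq2, by limma-voom and with any single library but LPS replicate 1 left out. S1pr4, a sphingosine phosphate receptor of lymphocytes, was at 155, 143 and 127 CPM in IFNγ and 81.2, 57.5 and 56.4 CPM in LPS. Txnip, an inhibitor of glucose uptake, and the antiproliferative Btg2 had log2 fold changes of 0.79 (SE 0.19) and 0.89 (SE 0.11). The chemokine receptor Ccr7, which guides cells to lymph nodes, was one of the pair higher in LPS, at 526, 596 and 575 CPM in IFNγ and 816, 769.5 and 743 CPM in LPS. Cxcr4, which retains cells in the marrow, was at 198, 114 and 119 CPM in IFNγ and 71.8, 43.9 and 52.2 CPM in LPS. No group overlapped the other in these genes, as in 49.8% of all tested genes.

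Activation and checkpoint receptors of lymphocytes were called on both sides, 6 of 23 each, a share of 26.1% beside 18% of all genes higher in IFNγ and 22.4% higher in LPS. Il2ra, the high-affinity IL-2 receptor chain, was at 120.2, 141 and 139 CPM in IFNγ and 309, 584 and 465 CPM in LPS (log2 fold change -1.76, SE 0.27, edgeR adjusted p = 0.000493), Cd44 at 131, 152 and 153 CPM in IFNγ and 345, 339 and 338 CPM in LPS and Cd69 at 322, 391 and 399 CPM in IFNγ and 459, 746 and 653 CPM in LPS. On the IFNγ side the count was 3 without IFNγ replicate 1, 2 without LPS replicate 2 and 1 without LPS replicate 3, and on the LPS side it was 10 with the replicate block. The median of -0.07 was 0.001 on library size alone and ranged from -0.23 (without LPS replicate 1) to 0.015 (without LPS replicate 3) with 1 library left out. Batf, an AP-1 factor of activated lymphocytes, was at 35.5, 40 and 43.4 CPM in IFNγ and 188, 248 and 243 CPM in LPS (-2.52, SE 0.15, edgeR adjusted p = 1.37e-06). The repressor Nfil3 was at 33.9, 56.5 and 66.7 CPM in IFNγ and 128, 176 and 181 CPM in LPS. Bach2, a repressor that keeps lymphocytes undifferentiated, was higher in IFNγ at 324, 262 and 226 CPM in IFNγ and 184, 170.4 and 171 CPM in LPS. Egr3, an immediate early factor, was also higher in IFNγ, at 7.86, 9.91 and 9.35 CPM in IFNγ and 2.45, 2.44 and 0 CPM in LPS (2.50, or 1.88 without LPS replicate 3, and an adjusted p of 0.0587 with the 6 libraries alone).

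Granzyme B and perforin, which cytotoxic CD8 T cells release to kill, were not called. Gzmb was at 19.9, 73.4 and 65.8 CPM in IFNγ and 35.3, 223 and 187 CPM in LPS (log2 fold change -1.49, SE 0.85, edgeR adjusted p = 0.187). Prf1 was at 1.38, 1.95 and 3.21 CPM in IFNγ and 0.511, 4.96 and 4.18 CPM in LPS (-0.59, edgeR adjusted p = 0.438). LPS replicate 1 lay below the other LPS libraries in both. With the replicate block Gzmb was called (-1.36, edgeR adjusted p = 0.0269), and without replicate 1 in all groups both were (-1.58 and -0.85). Of the 24 tested granule and NK receptor genes, 5 were called higher in IFNγ and 2 higher in LPS (8 and 6 with the replicate block, and 3 in IFNγ without any of the libraries in turn except IFNγ replicate 2), with a median of 0.037, which ranged from -0.10 (without LPS replicate 1) to 0.12 (without LPS replicate 2) with 1 library left out. These shares of 20.8% and 8.33% stand beside 18% and 22.4% over all genes. The LPS count was 1 without IFNγ replicate 1 or 3 or LPS replicate 2 or 3, 3 without LPS replicate 1 and 8 without replicate 1 in all groups.

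Survival genes differed most in Bcl2l1, the antiapoptotic Bcl-xL, at 33.2, 39.3 and 51.7 CPM in IFNγ and 208, 215 and 205 CPM in LPS (log2 fold change -2.34, SE 0.19, edgeR adjusted p = 7.13e-06). The proapoptotic Bax was also higher in LPS, at 56.3, 59.5 and 66.9 CPM in IFNγ and 96.4, 124 and 123 CPM in LPS. Mcl1, another antiapoptotic member, was at 1049, 1076 and 983 CPM in IFNγ and 842, 808 and 809 CPM in LPS and Casp1, the inflammasome caspase, at 57.4, 65.4 and 65.6 CPM in IFNγ and 33.1, 46.4 and 39.3 CPM in LPS, both higher in IFNγ. Of 31 genes of this list 10 were called higher in IFNγ and 5 higher in LPS, shares of 32.3% and 16.1% beside 18% and 22.4% over all genes, with a median of 0.12, ranging from 0.07 (without LPS replicate 1) to 0.22 (without IFNγ replicate 1) with 1 library left out, and the LPS count was 3 with IFNγ replicate 2 or 3 or LPS replicate 2 or 3 left out and 10 without replicate 1 in all groups.

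T cell markers were higher in IFNγ where they were called. Of 12 tested, 6 were called higher in IFNγ (10 with the replicate block), 50% beside 18% of all genes, and 0 higher in LPS by edgeR (0 at an unadjusted p under 0.05 and 0 by DESeq2), with values from 0.14 to 0.51 and medians against Naïve of -0.025 in IFNγ and -0.37 in LPS. Cd3e was at 135, 127 and 127 CPM in IFNγ and 98.2, 87.6 and 111 CPM in LPS. The sum over these markers was 2223, 1993 and 2074 CPM in IFNγ and 1744, 1561 and 1790 CPM in LPS, and its part in other results was not tested.

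B cell markers were called in both directions. Of 15, 5 were called higher in IFNγ (8 without replicate 1 in all groups) and 4 higher in LPS, shares of 33.3% and 26.7% beside 18% and 22.4% over all genes, with a median of 0.17, ranging from 0.087 (without IFNγ replicate 1) to 0.29 (without LPS replicate 1) with 1 library left out. The signalling chains of the B cell receptor were higher in IFNγ, Cd79a at 945, 813 and 829 CPM in IFNγ and 377, 234 and 271 CPM in LPS. Cd79b was at 556, 557 and 528 CPM in IFNγ and 343, 137 and 173 CPM in LPS. The Fc receptor-like gene Fcrla was at 172, 148 and 130.0 CPM in IFNγ and 49.8, 30 and 28.2 CPM in LPS. The lineage factor gene Pax5 went the other way, at 286, 329.6 and 306 CPM in IFNγ and 632, 462 and 428 CPM in LPS. Fcer2a, the low-affinity IgE receptor CD23, was at 119, 84.6 and 80.5 CPM in IFNγ and 707, 237 and 299 CPM in LPS, with the highest value in LPS replicate 1, and its log2 fold change of -2.13 was -1.50 without that library. The B cell marker sums in the single libraries are given with the library totals, and their part in these genes was not tested.

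Myeloid markers were higher in IFNγ in 7 of 20 genes (12 with the replicate block, 14 without replicate 1 in all groups) and higher in LPS in 2, shares of 35% and 10% beside 18% and 22.4% over all genes, with a median of 0.75, ranging from 0.50 (without IFNγ replicate 2) to 0.91 (without IFNγ replicate 1) with 1 library left out, and medians against Naïve of -0.069 in IFNγ and -0.92 in LPS. The 3 chains of complement C1q, which macrophages make, were higher in IFNγ. C1qa was at 11.3, 16.7 and 15.6 CPM in IFNγ and 1.84, 3.87 and 4.26 CPM in LPS, C1qb at 15, 31.7 and 30.4 CPM in IFNγ and 2.56, 5.8 and 5.15 CPM in LPS. C1qc was at 11.7, 20.4 and 21.7 CPM in IFNγ and 2.04, 3.28 and 3.22 CPM in LPS. Each LPS library was below every IFNγ library, as in 23.5% of all tested genes. Spic, a factor of red pulp macrophages, was higher in LPS at 5.99, 4.87 and 6.62 CPM in IFNγ and 13.2, 23.5 and 23.1 CPM in LPS. Lgals3, galectin 3, was at 192, 400.2 and 408 CPM in IFNγ and 83.1, 128 and 127 CPM in LPS and Psap, the precursor of the lysosomal saposins, at 889.7, 1293 and 1426 CPM in IFNγ and 478, 474 and 501 CPM in LPS, and both were called lower than Naïve in LPS and not called in IFNγ. The myeloid sums given above differ between the groups and were lowest in replicate 1, and their part in these genes was not tested.

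Of 8 dendritic cell markers 4 were called higher in LPS and 1 higher in IFNγ, shares of 50% and 12.5% beside 22.4% and 18% over all genes (2 in IFNγ with the replicate block, and 0 without IFNγ replicate 2 or 3 or LPS replicate 1). Their log2 fold changes were positive in 4 and negative in 4, from -1.28 to 2.47. The median of -0.21 ranged from -0.64 (without IFNγ replicate 2) to -0.13 (without IFNγ replicate 1) with 1 library left out. It was 0.033 without replicate 1 in all groups. Flt3, a growth factor receptor of dendritic cell precursors, was at 11.8, 12.4 and 13.2 CPM in IFNγ and 38.1, 29.2 and 23.6 CPM in LPS. The factor Zbtb46 was at 11.3, 13 and 12.8 CPM in IFNγ and 28.2, 27.6 and 26.5 CPM in LPS. Of 11 neutrophil markers 1 was called higher in IFNγ (5 with the block), of 8 NK cell markers 1 (3 with the block), and of 11 erythroid and platelet markers 0 by edgeR (2 at an unadjusted p under 0.05, 1 by DESeq2 and 4 with the block), none of them higher in LPS in these fits except 1 NK cell marker with the block. With 1 library left out the 3 counts ranged from 0 to 2, 0 to 2 and 0 to 1.

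The lists not described so far are given by their counts, beside 18% of all genes called higher in IFNγ and 22.4% higher in LPS. Of 17 chemokine receptors 5 were called higher in IFNγ and 2 higher in LPS, and the IFNγ count was 3 by limma-voom and 3 without LPS replicate 3. Their median of 0.14 ranged from 0.055 (without LPS replicate 3) to 0.27 (without LPS replicate 2) with 1 library left out. Of 27 genes of the Nr4a, Egr, AP-1 and Dusp families, the early response factors and phosphatases, 3 were called higher in IFNγ and 10 higher in LPS, and the IFNγ count was 5 with the replicate block and 5 without LPS replicate 1. Their median of -0.19 ranged from -0.35 (without IFNγ replicate 1) to -0.19 (without LPS replicate 3) over the same settings. Of 20 effector and memory transcription factors 4 were called higher in IFNγ and 2 higher in LPS. The IFNγ count was 1 without LPS replicate 3, and the LPS count was 4 without LPS replicate 1 and 6 without replicate 1 in all groups. Their median of 0.053 ranged from -0.035 (without LPS replicate 1) to 0.10 (without LPS replicate 2) and was -0.015 without replicate 1 in all groups. Of 9 B cell activation and plasma cell genes 2 were called higher in IFNγ and 4 higher in LPS, with a median of -0.60 that ranged from -0.82 (without LPS replicate 2) to -0.23 (without IFNγ replicate 2). Of 5 markers of CD4 and regulatory T cells 1 was called higher in IFNγ and 0 higher in LPS by edgeR (0 at an unadjusted p under 0.05 and 0 by DESeq2), with 2 and 1 under the replicate block and 2 and 0 without LPS replicate 2. Their median of 0.17 ranged from 0.018 (without IFNγ replicate 3) to 0.27 (without IFNγ replicate 2).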

How the data were processed

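RNA was sequenced from 12 libraries, 3 in each of 4 groups, and the 6 IFNγ and LPS libraries were compared. The authors deposited 1 table of estimated counts per gene, which per the submitters' processing notes and the methods came from kallisto on mouse build mm10, with DESeq2 1.24.0 also named. The kallisto version and the annotation are not given in the sources used here. Kallisto divides reads among transcripts, so estimated counts of near-identical genes (H2 class I, Gbp, Irg, Ly6, Bcl2a1 and amylase families) are uncertain.

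Counts were rounded to whole numbers, filtered with filterByExpr, scaled by TMM and fitted in 1 model over the 12 libraries with edgeR 4.0.16 (quasi-likelihood, R 4.3.3), contrast IFNγ minus LPS, with Benjamini-Hochberg adjustment over 12122 genes and a threshold of 0.05. Levels are CPM and log2 fold changes carry their standard errors (SE). Fold bounds use a floor of 3 counts per library. The labels do not say whether libraries with the same number are pairs. The deviations from group means of IFNγ and LPS libraries with the same number correlated at 0.298, 0.188 and 0.117, each highest for its own number. The main model has no block, and the study's methods do not state whether theirs had one. The blocked value is printed where it changed the call of a gene or moved a list's count by over 1.5 times. The code was tested on simulated counts. Alternatives were other scalings, filters, DESeq2, limma-voom (limma 3.58.1), fewer libraries and the block.

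Genes were named by a rule (the 12 largest and the 8 most abundant at least 2-fold differences in each direction among called genes with at least 5 CPM in the higher group and no overlap between groups), and others from gene lists. Some genes are not reported here. Members and lists were chosen with earlier results of these data known. Promoters are from RefSeq (GRCm38.p6).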

Additional observations from a re-analysis of the deposited data

How the results depend on the processing

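The number of genes called between IFNγ and LPS, 4895, and its split by direction stayed within 1.5 times under all alternatives run. It was 4943 with edgeR's RLE size factors, 4916 on library size alone, 4588 with no count filter (of 17117 tested), 4642 with a mean of at least 5 CPM, 5090 by DESeq2 1.42.0, 4766 by limma-voom and 4193 with only the 6 compared libraries in the fit. With 1 library left out it ranged from 3930 (without LPS replicate 2) to 5077 (without LPS replicate 1), and without replicate 1 in all groups, an alternative chosen after seeing the data, it was 5831. The replicate number as a block, which treats libraries with the same number as matched, raised it to 6387, with 4879 of the 4895 genes called in both fits. Among named genes it changed only the call of Gzmb, and gene list counts that it moved by over 1.5 times are printed with their lists. The share of called genes on the IFNγ side rose from 44.6% to 52.6% on library size alone, and the median log2 fold change of all genes from 0.035 to 0.106.

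Of 2094 values of 140 genes under 15 alternatives, 2081 kept their direction and their side of the threshold. Calls lost were Amy2a5, Ifng, Cxcl3 and Inhba by limma-voom, Il16 without LPS replicate 2 and Egr3 with 6 libraries, and calls gained were Cxcl10, Gzmb and Prf1. Prf1 was also called without LPS replicate 1 (-1.08). Only Cd8b1, which was not called, changed sign. Its log2 fold change of 0.077 was -0.0026 without replicate 1 in all groups and ranged from -0.047 (without LPS replicate 1) to 0.17 with 1 library left out. List medians that changed sign are printed with their lists, beside those of erythroid and platelet markers (0.40, or -0.32 without IFNγ replicate 2), dendritic cell markers (-0.21, or 0.033 without replicate 1 in all groups) and the TLR list (0.018, or -0.009 without replicate 1 in all groups). With 1 library left out, the erythroid and platelet median reached 0.94 (without LPS replicate 2) and the dendritic median -0.64 (without IFNγ replicate 2). The cause of these changes was not tested.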

Other observations

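Other gene groups were looked at after the values had been seen and are described by their counts alone, with no test of the groups. Lysosomal enzyme genes, beside Psap, were mostly higher in IFNγ: of 40 tested, 25 were called higher in IFNγ and 1 higher in LPS by edgeR's quasi-likelihood test, shares of 62.5% and 2.5% beside 18% and 22.4% over all genes (2 in LPS with the replicate block and 0 without LPS replicate 2), with a median log2 fold change of 0.46. The medians against Naïve were -0.18 in IFNγ and -0.63 in LPS. Below Naïve 28 were called in LPS and 4 in IFNγ, beside 22.3% and 4.27% of all genes, and 4 were called above Naïve in IFNγ and 0 in LPS. Ctsh, cathepsin H, was at 157, 214 and 208 CPM in IFNγ and 66.4, 67.2 and 65.9 CPM in LPS. The groups did not overlap in it, as in 49.8% of all tested genes. Macrophages also express many of these enzymes, and the part of the myeloid marker sums in this group was not tested.

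Genes linked to FoxO transcription factors, which are active when growth factor signalling is low, were called higher in IFNγ in 11 of 16 (68.8%) and higher in LPS in 0 (0 at an unadjusted p under 0.05 and 0 by DESeq2), with a median of 0.85. The shares over all genes were 18% and 22.4%. Klhl24, a Kelch-like protein, was at 169, 139 and 125 CPM in IFNγ and 79.2, 50.2 and 46.2 CPM in LPS, and Mxd4, a MAX partner that opposes Myc, was at 84.2, 49.2 and 54.1 CPM in IFNγ and 34.4, 17.3 and 17.3 CPM in LPS. Of 14 genes of B cell receptor signalling, 8 were called higher in IFNγ and 2 higher in LPS, shares of 57.1% and 14.3% beside 18% and 22.4% over all genes (1 in LPS without IFNγ replicate 1 or 2 or LPS replicate 2 or 3), with a median of 0.49. Fcmr, the IgM Fc receptor, was at 249, 269.7 and 239 CPM in IFNγ and 86.2, 41.7 and 46.2 CPM in LPS, and the kinase Btk was at 107, 92.3 and 93.7 CPM in IFNγ and 44.9, 47.8 and 48 CPM in LPS. Of 43 translation initiation and elongation factors, 35 were called higher in LPS and 1 higher in IFNγ, shares of 81.4% and 2.33% beside 22.4% and 18% over all genes (0 in IFNγ with any single library but LPS replicate 3 left out), with a median of -0.61. Eif4e, which binds the mRNA cap, was at 42.9, 58.5 and 58.4 CPM in IFNγ and 108, 147 and 133 CPM in LPS.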
